A study of Rattus norvegicus with 12 samples.

Results

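The 8 genes described here, Nrxn2, Nrxn3, Nlgn1, Nlgn2, Nlgn3, Cntn1, Ncam1 and Unc5a, encode cell surface proteins of synaptic adhesion and axon guidance. They were taken by name, as all probe sets whose platform annotation gives 1 of these symbols and no other, which found 11 probe sets among the 15923 of the array, or 8 of the 10411 genes with a symbol of their own. Neurexins sit in the presynaptic membrane and bind neuroligins on the postsynaptic side, and the pair helps to organise the synapse. Contactins and NCAM are immunoglobulin-type adhesion molecules of axons, dendrites and glia, and UNC5 proteins are receptors for netrins, which guide growing axons and are also present in the adult brain.

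RNA was measured in microdissected CA1, the hippocampal output field, of young male Long-Evans rats aged 3 to 4 months, on 12 Affymetrix RAE230A arrays whose titles call them biological replicates. The spatial learning group (6 arrays) swam 8 trials, 8 minutes apart, in an unfamiliar water maze with orienting cues and a visible platform kept in place. The control task group (6 arrays) swam as many trials to a visible platform that was moved between trials, in surroundings without informative cues. Both groups had learned a standard water maze 2 to 3 weeks before, and all were killed right after a 90 s probe trial that came 1 h after the session. The comparison asks how CA1 transcripts differ once rats have been able to learn a place. It cannot tell this apart from the differences in surroundings and cues. All values below are GCRMA log2 signals, all differences are spatial learning minus control task, and the number of arrays limits the precision. A signal depends on the probes as well as on the transcript, so no gene's level is set against another gene's.

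Of the 9610 probe sets with a mean signal of at least 4, 0 passed a limma adjusted p of 0.05 (0% called), and at an unadjusted p under 0.05 there were 1048 (10.9%), of which 437 were lower (4.55%) and 611 higher (6.36%). The groups did not overlap at all in 0.635% of the tested probe sets. Of 10 CA1 markers 7 had a probe set, and 6 were tested, Wfs1 (wolframin) at 12.18 in the spatial learning group and 11.89 in the control task group. All 6 tested CA1 markers were higher after spatial learning (median difference 0.20) and all 5 tested dentate markers lower (-0.23), with 0 passing the test. The 7 tested CA3 markers were mixed, 3 higher and 4 lower (median -0.10, from -0.34 to 0.37), with 0 passing too. The mean of the dentate markers was 6.87 to 7.24 per array after spatial learning and 7.04 to 7.54 after the control task. These markers include Jun (-0.29), an AP-1 transcription factor, and Sema5a (-0.23), which is in the list of semaphorins too. Of 15 astrocyte markers 12 were lower (-0.089), their mean lying at 10.27 to 10.44 after spatial learning and 10.37 to 10.51 after the control task. Microglial markers were lower in 10 of 12 (median -0.055), with a mean of 7.22 to 7.55 after spatial learning and 7.24 to 7.74 after the control task, and P2ry12, a microglial receptor, at -0.43. Markers of neighbouring regions were lower in 4 of 6 (median -0.033), with a mean of 6.66 to 6.92 after spatial learning and 6.83 to 7.10 after the control task. The glutamate transporter Slc17a6 stood at -0.73 and the rest of this list between -0.13 and 0.10. The shift of the list mean thus leans on Slc17a6, and the mean was not computed without it. Control task arrays 3 and 6 and spatial learning array 6 stood apart in choroid plexus or meningeal transcripts: the mean of the 3 tested choroid plexus markers reached 9.49 on control task array 3, and that of the meningeal markers 7.70 on spatial learning array 6 and 7.95 on control task array 6. The mean of the choroid plexus markers also moved with the groups, averaging 5.89 ± 0.14 after spatial learning and 7.08 ± 1.31 after the control task (SD, n = 6 each). Control task arrays 1 (6.58), 2 (7.03), 3 and 6 (7.39) lay above every spatial learning array (highest 6.05), and Ttr (transthyretin), at -3.33, had the difference of largest size among the tested probe sets. The 3 choroid plexus markers did not move alike: Enpp2, which is in the oligodendrocyte list too, stood at -0.41 and Kcne2 at 0.18. The part of these marker shifts in the results below was not tested. Hexokinase, whose probe sets at either end of the transcript serve as an RNA quality control, had a gap (3' minus 5' signal) of 1.65 ± 0.11 in the spatial learning group and 1.48 ± 0.079 in the control task group (SD, n = 6 each; exact permutation p = 0.00433, adjusted over 3 control transcripts 0.0130). The same gap differed by 0.096 for beta-actin (exact permutation p = 0.0779, adjusted 0.117) and by -0.00019 for GAPDH (exact permutation p = 0.998, adjusted 0.998). The group difference was thus not shared by all 3 control transcripts. In bulk tissue, fewer cells of a type and less RNA per cell cannot be told apart.

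All 8 genes had 1 probe set above the filter, which is no detection call, and 0 of these 8 passed the limma test over the whole table. Of the 8, 6 had a lower mean after spatial learning (46.3% of all tested probe sets did) and 2 a higher mean, and the groups overlapped in every member. The median difference was -0.14, against 0.0079 over all tested probe sets. The lower means with an unadjusted p under 0.05 were those of Cntn1, Unc5a and Nrxn3, 3 of 8, where 4.55% of all tested probe sets were lower at that level. The count depends on the test and the arrays: Nrxn3 was not under 0.05 in the exact permutation test (p = 0.0584), Unc5a was the 1 gene of the 3 still under it in limma without the 3 arrays that stood apart, and Nrxn3 the 1 with the hexokinase gap as a covariate. The 8 genes were chosen with earlier results of these data known, so this count is a description and no test. The other 3 member probe sets, a second one each for Nrxn2, Nlgn3 and Ncam1, lay below the filter. All 3 were designed from sequences without a RefSeq mRNA accession, as was 1 of the 8 tested ones. The other 7 tested probe sets were designed from RefSeq mRNAs, per the accessions in the platform annotation.

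**Figure D1:**
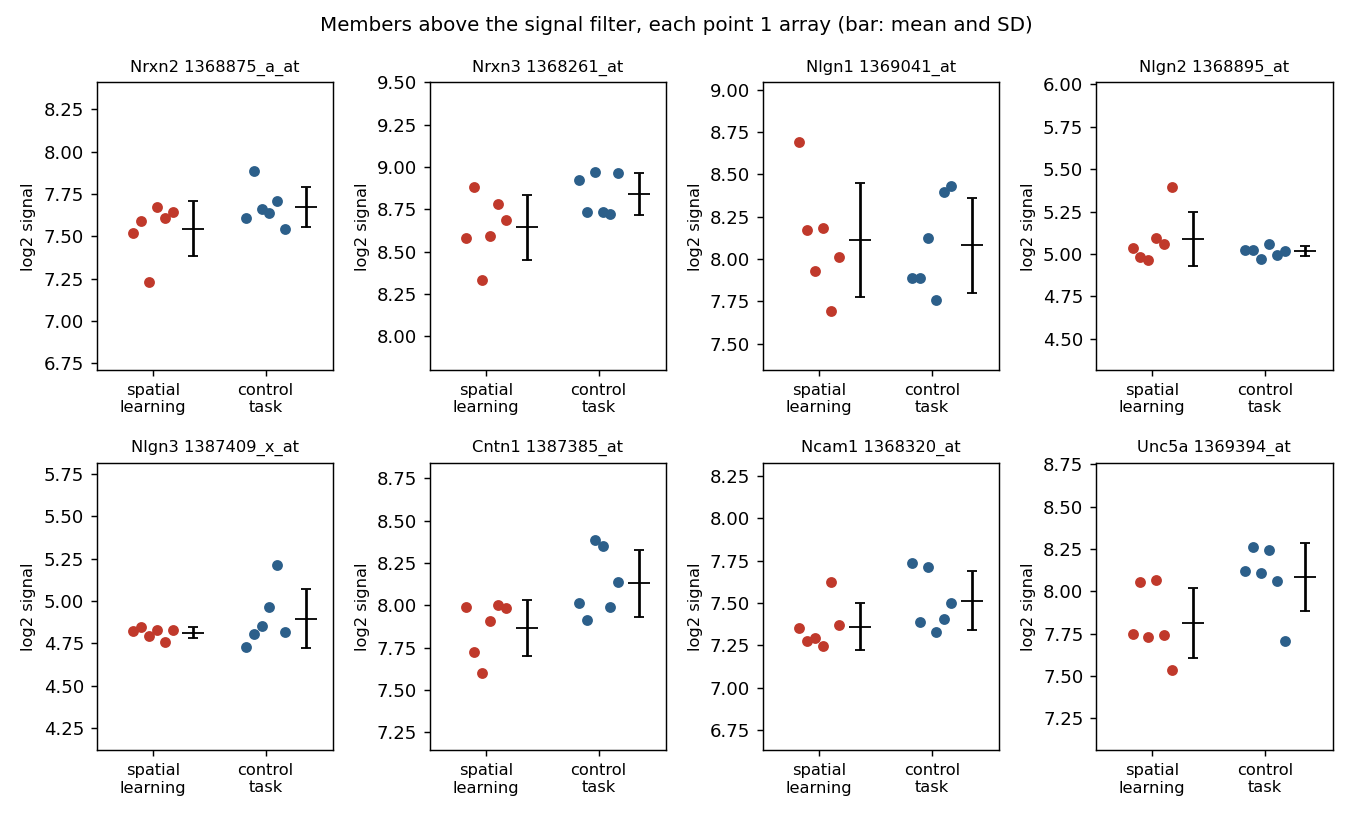
Log2 signal (vertical axis, the same span in every panel) of the 8 tested member probe sets, with each point 1 array, spatial learning left and control task right, and the bar giving the mean and SD of 6. Cntn1 and Unc5a have lower means after spatial learning with overlapping points, and Nlgn1 has the widest scatter within groups.

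Nrxn3, a presynaptic neurexin, had signals from 8.33 to 8.88 after spatial learning with a median of 8.64, against 8.72 to 8.97 in the control task group with a median of 8.83. Of the 6 spatial learning arrays, 4 lay below the lowest control task array and the other 2 within the control range. The difference was -0.20 (SE 0.09, 95% interval -0.38 to -0.01, limma adjusted p = 0.437; exact permutation p = 0.0584, unadjusted), a fold of 0.872. Without the 3 arrays that stood apart it was -0.14. Nrxn2, its paralogue, had signals of 7.23 to 7.67 after spatial learning (median 7.60) and 7.54 to 7.89 after the control task (median 7.65). Its difference was -0.13 (SE 0.08, limma adjusted p = 0.570), with spatial learning array 3 lowest. That array was also the lowest of the 12 in Nrxn3, Cntn1 and the dimmer Nlgn3 probe set. Without it the differences were -0.068 for Nrxn2, -0.13 for Nrxn3, -0.21 for Cntn1 and -0.48 for the dimmer Nlgn3 probe set. The second Nrxn2 probe set was dim and nearly flat, at 3.38 to 3.47 after spatial learning and 3.38 to 3.501 after the control task. Its suffix and that of the brighter one mark probes shared by several transcripts of 1 gene, so splice forms are not separated.

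The neuroligins, the postsynaptic partners, did not show a common direction. Nlgn1, found at excitatory synapses, had signals of 7.69 to 8.69 after spatial learning (median 8.09) and 7.76 to 8.43 after the control task (median 8.01). The spatial learning values reached both below and above the control range, and the difference was 0.034 (95% interval -0.31 to 0.38). Its spread between arrays within groups, an SD of 0.311, was above that of most tested probe sets (percentile 95.7), and the interval of its fold ran from 0.806 to 1.30. Nlgn2, found at inhibitory synapses, lay at 4.97 to 5.40 after spatial learning (median 5.05) and at 4.97 to 5.06 after the control task (median 5.02). Its difference was 0.073 (SE 0.07, limma adjusted p = 0.714) and was 0.012 without spatial learning array 6, the array high in meningeal transcripts. Without the 3 arrays that stood apart the Nlgn2 difference was 0.0018.

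Nlgn3, present at excitatory and inhibitory synapses, was read by 2 probe sets that gave different sizes. The brighter one, whose suffix warns that its probes may also bind other transcripts, had signals of 4.76 to 4.85 after spatial learning (median 4.83) and 4.73 to 5.21 after the control task (median 4.83). All 6 spatial learning values lay inside the control range, and the difference was -0.083 (SE 0.07, limma adjusted p = 0.695). The dimmer one, which averaged 3.89 and so fell just under the filter of 4, had 3.11 to 3.88 after spatial learning (median 3.66) and 3.79 to 4.51 after the control task (median 4.19). Here 4 of the 6 spatial learning arrays lay below every control task array, and 3 control task arrays stood at 4.41 or higher, above all others. The lowest value was again that of spatial learning array 3. Fitted with no filter on signal, its difference was -0.57 (SE 0.16, 95% interval -0.93 to -0.21), the largest in size among the 11 member probe sets, but it did not pass over all 15866 probe sets (limma adjusted p = 0.501; exact permutation p = 0.0130, unadjusted). GCRMA compresses differences near background, so sizes at this level are uncertain.

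**Figure D2:**
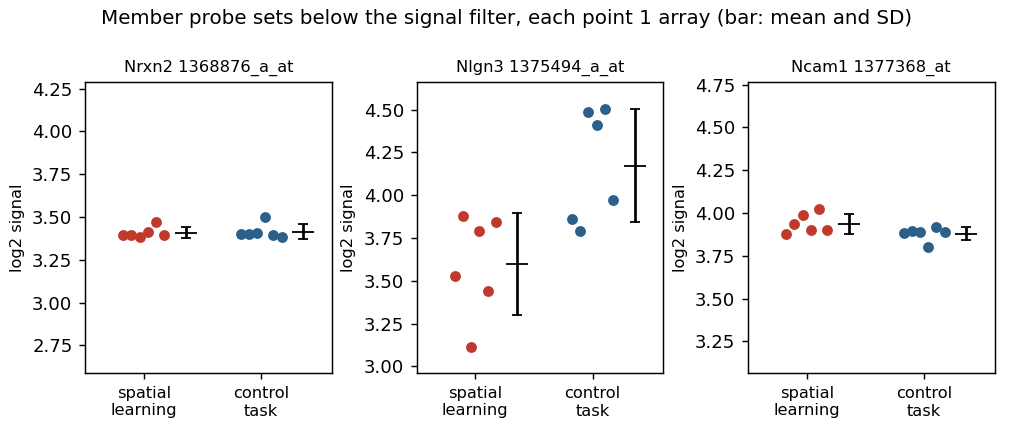
Log2 signal (vertical axis, the same span in every panel) of the 3 member probe sets below the filter, with each point 1 array, spatial learning left and control task right, and the bar giving the mean and SD of 6. Nrxn2 and Ncam1 stay within a narrow band, while Nlgn3 runs from 3.11 to 4.51.

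The agreement between probe sets of a gene was tested over the 3085 pairs of 1868 genes, with no filter, since no member has both probe sets above it. The Nlgn3 pair differed in its response by 0.49 (brighter minus dimmer, SE 0.14, 95% interval 0.19 to 0.79), which did not pass over all pairs (limma adjusted p = 0.283) where 1 pair of the 3085 did (0.0324%) and 9.34% had an unadjusted p under 0.05. Of the 3 member pairs, those of Nlgn3 and Ncam1 were also under that level in limma, with exact permutation p of 0.00649 and 0.0238. The Ncam1 pair differed by -0.21 (95% interval -0.38 to -0.04, limma adjusted p = 0.446) and the Nrxn2 pair by -0.12 (95% interval -0.29 to 0.04, limma adjusted p = 0.580). The dim Ncam1 and Nrxn2 probe sets hardly varied within groups (residual SD at percentiles 4.61 and 2.04 of the tested probe sets), so these differences largely restate those of the brighter probe sets and say little about agreement. Across the 12 arrays, with group means removed, the 2 Nlgn3 probe sets correlated at Pearson r = 0.62 (permutation p = 0.0142, 0.0426 adjusted over the 3 member pairs) and Spearman rho = 0.73 (permutation p = 0.0101, adjusted 0.0304). Without the 2 arrays farthest from the median r was 0.62. The Ncam1 pair gave r = 0.45 (permutation p = 0.142, adjusted 0.213), rho = 0.28 (permutation p = 0.379, adjusted 0.379) and 0.16 without the 2 farthest arrays. The Nrxn2 pair gave r = 0.18 (permutation p = 0.533, adjusted 0.533), rho = 0.39 (permutation p = 0.210, adjusted 0.315) and 0.14 without the 2 farthest. Over all 3085 pairs the median r was 0.12, with quartiles of -0.16 and 0.40.

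**Figure D3:**
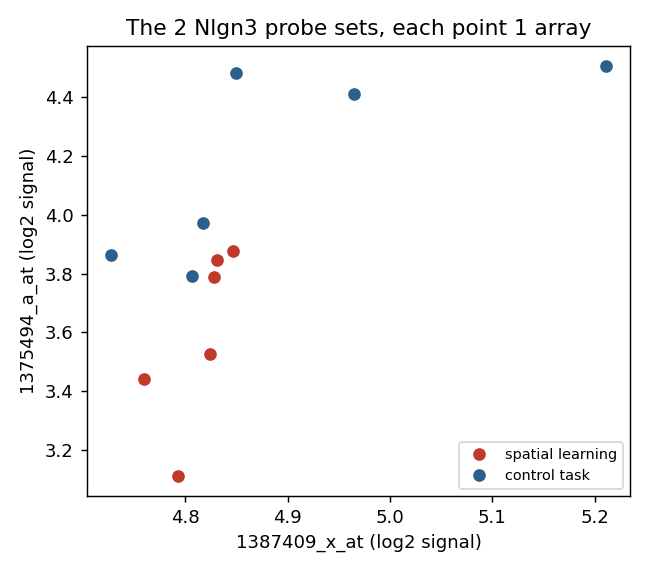
Log2 signals of the brighter (horizontal axis) and dimmer (vertical axis) Nlgn3 probe sets, with each point 1 of 12 arrays coloured by group. The 6 spatial learning arrays cover a narrow stretch of the horizontal axis, 4.76 to 4.85, and a wide one of the vertical axis, 3.11 to 3.88.

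Cntn1 encodes contactin-1, a membrane-anchored immunoglobulin-type adhesion molecule that pairs with Caspr at the edges of nodes of Ranvier. Its signals were 7.60 to 8.00 after spatial learning (median 7.95) and 7.91 to 8.39 after the control task (median 8.07). All 6 spatial learning arrays lay below the control median and 3 below every control task array, while 2 control task arrays stood clearly above the rest, at 8.35 and 8.39. Spatial learning array 3 was the lowest, at 7.60. The difference was -0.26 (SE 0.10, 95% interval -0.47 to -0.05), a fold of 0.833, which did not pass (limma adjusted p = 0.429; exact permutation p = 0.0303, unadjusted). It had the smallest unadjusted p of the 8 and stood at rank 409 of 9610. Without the 3 arrays that stood apart it was -0.22 (limma adjusted p = 0.458). Oligodendrocytes express Cntn1 too, and 10 of 13 tested oligodendrocyte markers had a lower mean (median -0.045). The mean of these 13 markers was 9.54 to 9.91 per array after spatial learning and 9.58 to 9.94 after the control task, and their part in the Cntn1 difference was not tested.

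Unc5a encodes a netrin receptor that mediates repulsion of axons. Its signals were 7.53 to 8.06 after spatial learning (median 7.75) and 7.71 to 8.26 after the control task (median 8.12). Of the spatial learning arrays 4 stood at 7.75 or lower and 2 at 8.06, and of the control task arrays 5 stood at 8.06 or higher and array 6 alone at 7.71. The difference was -0.27 (SE 0.11, 95% interval -0.51 to -0.04), a fold of 0.828, and did not pass (limma adjusted p = 0.429; exact permutation p = 0.0390, unadjusted). Without the 3 arrays that stood apart, of which control task array 6 is 1, it was -0.31 (limma adjusted p = 0.255).

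The 250 bases before the transcript start are shown for Cntn1 and Unc5a, the 2 members with the lowest unadjusted p, to show how different their start regions are. They come from RefSeq on the GRCr8 assembly, where chr7:125252060-125252309 is on the plus strand and chr17:9675664-9675913 on the minus strand, and both are printed 5′ to 3′. Each start is internal to its gene, 109672 bases from the outermost annotated start of Cntn1 and 131 bases from that of Unc5a. Capitals mark matches to a GC box.
Cntn1: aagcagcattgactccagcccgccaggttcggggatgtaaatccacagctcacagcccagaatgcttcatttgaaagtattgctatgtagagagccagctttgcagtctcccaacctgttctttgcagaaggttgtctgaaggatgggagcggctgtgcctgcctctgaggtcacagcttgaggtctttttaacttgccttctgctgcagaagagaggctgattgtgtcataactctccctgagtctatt
Unc5a: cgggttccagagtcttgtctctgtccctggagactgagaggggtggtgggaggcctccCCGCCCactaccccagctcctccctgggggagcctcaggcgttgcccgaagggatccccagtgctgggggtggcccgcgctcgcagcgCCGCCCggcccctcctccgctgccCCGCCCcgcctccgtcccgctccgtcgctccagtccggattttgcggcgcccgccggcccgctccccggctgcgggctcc
The Unc5a window was 75.6% G or C and the Cntn1 window 50%, against a median of 51.2% over 33469 rat promoters of the same length. Motifs were searched on both strands, and the GC box (GGGCGG) matched 3 times in Unc5a, 80 to 192 bases before the start, and 0 times in Cntn1, where 30.5% of all promoters hold a match. The core of the cAMP response element (TGACG, in 18.2% of promoters), the AP-1 motif (TGANTCA, 6.34%) and the EGR motif (GCGNGGGCG, 4.29%) had 0 matches in both windows, and no match overlapped another. RefSeq promoters were at hand for 5 of the 8 genes.

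Ncam1 encodes the neural cell adhesion molecule, whose polysialylated form is linked to plasticity. Its brighter probe set had signals of 7.24 to 7.62 after spatial learning (median 7.32) and 7.33 to 7.74 after the control task (median 7.45). Of the spatial learning arrays 3 lay below every control task array, but spatial learning array 5 lay among the highest of the 12. The difference was -0.15 (SE 0.09, limma adjusted p = 0.539). The second, dim probe set went slightly the other way, at 3.87 to 4.02 after spatial learning and 3.80 to 3.92 after the control task, a difference of 0.057 (limma adjusted p = 0.511 with no filter).

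**Figure D4:**
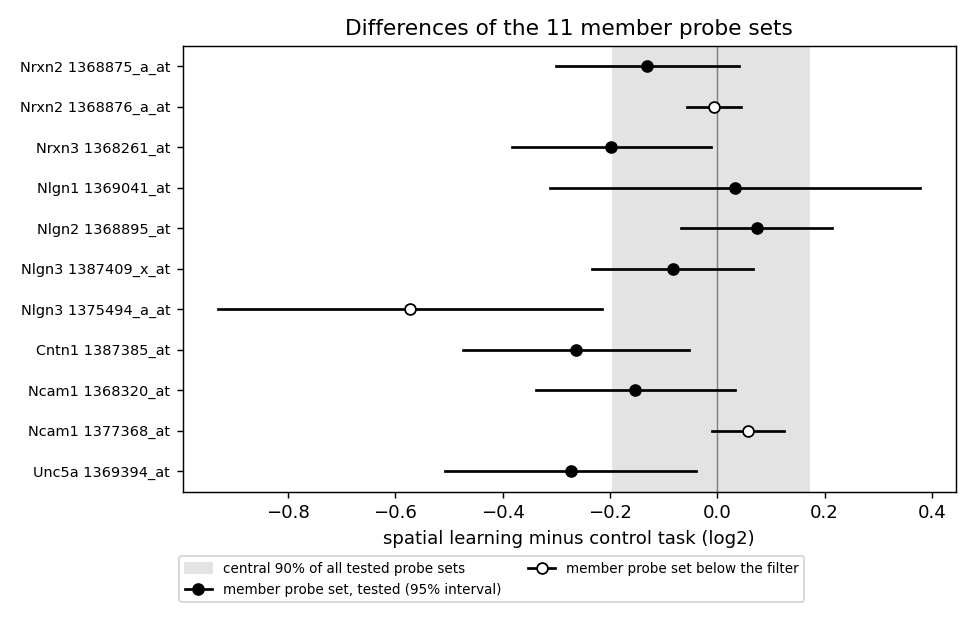
Difference, spatial learning minus control task (horizontal axis, log2), with its 95% interval for the 11 member probe sets. Filled points passed the signal filter, open points did not, and the grey band holds the central 90% of all tested probe sets, from -0.20 to 0.17. The intervals of Nrxn3, Cntn1, Unc5a and the dim Nlgn3 probe set leave out 0 before adjustment.

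The hexokinase gap moved with the groups, and with it as a covariate the Nrxn3 difference was -0.36 and the Unc5a difference -0.18, while Cntn1 stood at -0.25. The covariate turned the sign of the brighter Nlgn3 probe set (0.014) and of Nlgn2 (-0.017). None of these passed (limma adjusted p from 0.721 to 0.980).

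The genes whose signals followed those of a member most closely were picked among 6859 tested genes by Pearson r over the 12 arrays with group means removed. They are a description, since the largest of so many correlations is high by selection. Nrxn2 was closest to Pfkl (r = 0.94) and Sult4a1 (0.91), Nrxn3 to Tbrg4 and Morc3 (both 0.87). Nlgn1 was closest to Rnf170 (0.93) and Wapl (0.91), Nlgn2 to Ifitm2 (0.94) and Ilvbl (0.93), and Nlgn3 to Tor2a and Nup50 (both 0.96). Nlgn2 was highest on spatial learning array 6 (5.40, next 5.09) and the brighter Nlgn3 probe set on control task array 5 (5.21, next 4.96). The r of these members may thus rest largely on 1 array, and were not computed without it. Cntn1 was closest to Fstl1 (0.92) and Mtch1 (0.83), Ncam1 to Ppif (0.94) and Bod1 (0.86), and Unc5a to Rbm12b and Hid1 (both 0.87). Among the 28 pairs of members r ran from -0.51 (Nlgn3 with Ncam1) to 0.53 (Nrxn3 with Ncam1), and 0 passed a permutation test after adjustment (lowest adjusted p = 0.849), with 0 under 0.05 before it. Without the 2 farthest arrays r was 0.85 for Nrxn3 with Ncam1 and -0.44 for Nlgn3 with Ncam1. Other pairs moved too, Nrxn3 with Unc5a from -0.061 to -0.54 and Nrxn2 with Nrxn3 from 0.31 to -0.093. These trimmed values are unstable and were not tested.

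The wider setting was read from 8 lists of adhesion and guidance genes, each gene through its brightest probe set. Apart from the 8 members, 103 distinct genes were tested, of which 53 were higher and 50 lower, with a median difference of 0.012 and 0 past the limma test. At an unadjusted p under 0.05, 7 were higher and 9 lower, 15.5% against 10.9% of all tested probe sets (6.36% higher and 4.55% lower). Counted over all 103, these partners had no common direction. The counts and medians of single lists, given next, include the members that a list holds. In the list of the neurexin and neuroligin family with its extracellular partners 9 of 16 were lower, median -0.026. Nxph3, a neurexophilin and secreted ligand of neurexins, stood at 5.42 to 6.29 after spatial learning (median 5.90) and 5.91 to 7.04 after the control task (median 6.65). Its difference of -0.72 (SE 0.22, limma adjusted p = 0.388) was the largest in size in the 8 lists, with 3 spatial learning arrays below every control task array. A second Nxph3 probe set, below the filter, gave -0.075. The related Nxph1 stood at 0.17 and the secreted neurexin ligand Cbln2 at -0.21.

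Among the intracellular partners 7 of 13 were higher and 6 lower, median 0.022. Cask, the scaffold that binds the neurexin tail, had signals of 7.20 to 7.47 after spatial learning (median 7.29) and 7.37 to 7.68 after the control task (median 7.56). Of the spatial learning arrays 5 lay below every control task array, and the difference was -0.25 (SE 0.07, limma adjusted p = 0.345). Lin7b, which forms a complex with Cask, stood at 0.15 with 5 spatial learning arrays above every control task array, and Dlg3, a scaffold of the postsynaptic density, at 0.13. A second Cask probe set below the filter gave -0.011, and the other Dlg3 probe sets 0.088 and 0.0017.

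In the contactin and L1 family list 8 of 14 were lower, median -0.0099. Cntnap1, which encodes Caspr, the binding partner of contactin-1, averaged 8.80 ± 0.18 after spatial learning and 9.01 ± 0.11 after the control task (SD, n = 6 each), with 4 spatial learning arrays below every control task array. Its difference was -0.21 (SE 0.08, limma adjusted p = 0.429). Ank2, an ankyrin that anchors L1-type proteins, stood at -0.15, while Tnc (tenascin C) stood at 0.084 and the other contactins above the filter, Cntn2 and Cntn4, at 0.017 and -0.13. The NCAM list had 6 of 10 lower, median -0.0053. St8sia3, a sialyltransferase, stood at -0.39 (SE 0.15, limma adjusted p = 0.429), Gap43, a growth cone protein, at -0.15 and Fgfr1, a receptor that NCAM engages, at 0.15. Second probe sets of Gap43 and Fgfr1 gave 0.21 and -0.091, opposite in sign to the first.

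In the netrin list 7 of 11 were lower, median -0.012, with Maged1, an intracellular partner of UNC5 proteins, at 0.10, Pitpna, a phosphatidylinositol transfer protein, at -0.091 and the focal adhesion kinase Ptk2 at 0.16. The other synaptic adhesion molecules were lower in 10 of 19, median -0.011, with Negr1, an immunoglobulin-type molecule of the IgLON family, at -0.22, Cdh13 (T-cadherin) at -0.29 and the receptor phosphatase Ptprs at 0.054. The 2 further Cdh13 probe sets gave -0.27 and -0.14, and those of Ptprs -0.14, 0.0048 and 0.046. Slits, semaphorins and their receptors were higher in 15 of 24, median 0.025, with Dpysl4, of the collapsin response mediator family, at 0.33, the semaphorin receptor Plxna1 at 0.17 and Sema4a at 0.15. Ephrins and Eph receptors were higher in 3 of 4, median 0.065, with Epha5 at -0.15, Epha4 at 0.096 and Epha7 at 0.12, where a second Epha7 probe set below the filter gave -0.062. None of the genes named from the 8 lists passed the limma test, their adjusted p lying between 0.345 and 0.965.

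**Figure D5:**
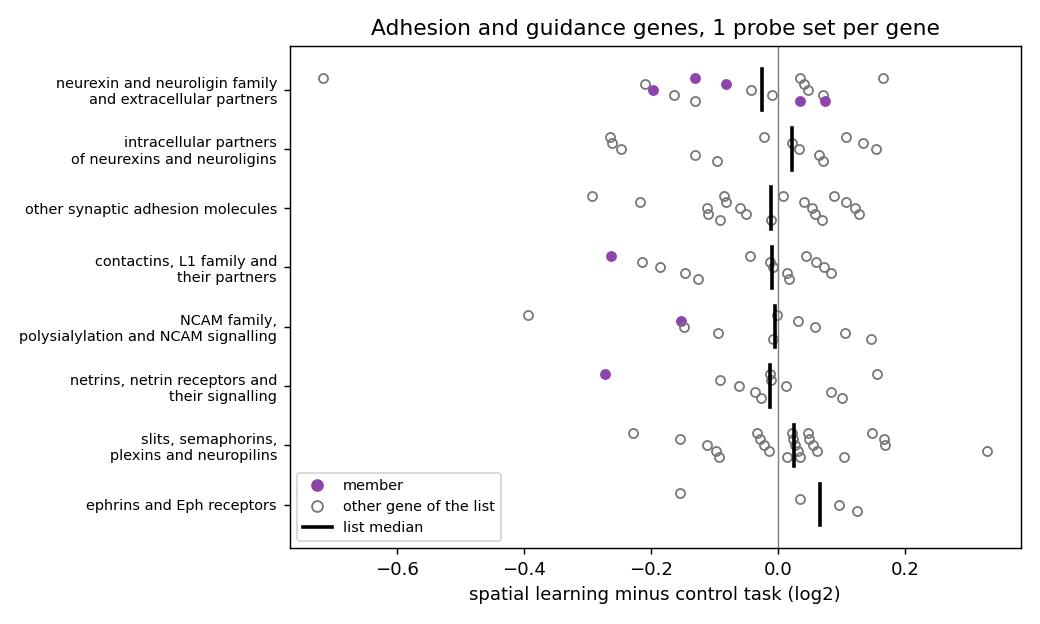
Difference, spatial learning minus control task (horizontal axis, log2), of each tested gene in the 8 lists of adhesion and guidance genes, 1 probe set per gene. Filled points are the 8 members, open points the other genes, and black bars the list medians, which lie between -0.026 and 0.065.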

How the data were processed

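The deposited values are log2 probe set summaries of 12 arrays, which the authors made with GCRMA, per the submitters' processing notes. Its version is not given in the sources used here, and the log2 scale was settled from the range of 0.134 to 14.8. GCRMA corrects background by probe sequence and makes array distributions nearly equal. Groups and replicate numbers come from the titles.

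Names came from the platform annotation: 12783 probe sets have 1 symbol, 312 several and 2771 none here, and 12748 of the first were found in a RefSeq table on GRCr8, with 0 symbols updated. The 9610 probe sets with a mean of at least 4, controls left out, were fitted with limma 3.58.1 in R 4.3.3 (eBayes with an intensity trend, 2-sided, Benjamini-Hochberg over all, threshold 0.05), and SEs are the moderated ones. Differences between probe sets of a gene were fitted likewise without the trend. Exact permutation tests used all 924 splits (smallest p 0.00216), and correlations 100000 permutations. On data simulated for this comparison (9607 probe sets tested), 83% of changes of 0.5 and 98% of changes of 1 were recovered, with 7 unchanged probe sets called. Changes smaller than 0.5 were not simulated. The largest difference in size among the tested member probe sets was -0.27 (Unc5a). These percentages thus do not tell how often differences like those of the tested members would be called. The dim Nlgn3 probe set lay below the filter, so they are not read for it either.

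The members and lists were chosen with earlier results of these data known. Named genes are all members, the 3 other genes of each partner list with the smallest p, and the 2 genes most like each member. Cntn2, Cntn4, Wfs1, Jun, Sema5a, P2ry12, Slc17a6, Ttr, Enpp2, Kcne2, Dgkz, Ralgapb, Bsn, Atp1b2 and Gnas fall outside this rule and were named after their values were seen.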

Additional observations from a re-analysis of the deposited data

Results flagged for a closer look

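Single arrays stood apart in 7 of the 22 groups of 6 values that the 11 member probe sets give, judged by the gap to the nearest array as a share of the group's range; about 1 group in 20 would be marked by chance. Spatial learning array 3 was low in the brighter Nrxn2 probe set, at 7.23 with the nearest array at 7.52, and spatial learning array 6 high in Nlgn2, at 5.40 with the nearest at 5.09. Spatial learning array 5 was high in the brighter Ncam1 probe set, at 7.62 with the nearest at 7.37. Control task array 6 was low in Unc5a, at 7.71 with the nearest at 8.06. Among the dim probe sets, spatial learning array 5 stood at 3.47 and control task array 4 at 3.501 in Nrxn2, with the nearest at 3.41 and 3.40, and control task array 4 at 3.80 in Ncam1, with the nearest at 3.89.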

How the results depend on the processing

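Under 22 alternatives to the filter, normalization, variance model, test, covariate, replicate block and arrays used, 0 of 234 member results passed the threshold, and the lowest adjusted p was 0.199. Nrxn3, Cntn1, Unc5a, the brighter Nrxn2 and Ncam1 probe sets and the dim Nlgn3 one were lower under all alternatives run. Changes of the filter, variance model, test or replicate block leave a difference as it is, so only the other alternatives could have turned a sign. Leaving out 1 array at a time moved Unc5a between -0.35 and -0.22, Cntn1 between -0.31 and -0.21, Nrxn3 between -0.25 and -0.13 and the dim Nlgn3 probe set between -0.65 and -0.48. It moved Nlgn2 between 0.012 and 0.098, the brighter Nrxn2 probe set between -0.16 and -0.068 (the smaller size without spatial learning replicate 3) and the brighter Nlgn3 one between -0.12 and -0.020 (without control task replicate 5). It turned the sign of Nlgn1, between -0.082 and 0.12, and of the dim Nrxn2 probe set, between -0.018 and 0.011. Without the 3 arrays that stood apart, Nrxn3 was at -0.14, Cntn1 at -0.22, Ncam1 at -0.11, Nlgn1 at 0.15 and Unc5a at -0.31. With the hexokinase gap as a covariate, Nlgn2 (-0.017), the brighter Nlgn3 probe set (0.014) and the dim Nrxn2 one (0.020) changed sign; the cause was not tested. Over all probe sets 0 passed, against 5 without the 3 arrays that stood apart (Dgkz and Ralgapb higher, Bsn, Atp1b2 and 1 unnamed lower) and 0 to 3 with 1 array left out (3 without control task replicate 6), and 0 of these was a member. Among probe set pairs 0 of 1408 passed above the filter and 1 of 3085 without it, a Gnas pair. With the replicate number as a block (replicate block), 0 probe sets passed and Unc5a had a limma adjusted p of 0.444. The arrays as a whole showed no pairing by number. Same-number arrays correlated between -0.17 and 0.08 in their deviations from the group means. Of the spatial learning arrays 1 of 6 was closest to its own number. Single genes differed: the SE of Unc5a was 0.053 with the block and 0.11 without it. With the block the SE was larger for Nrxn3, Cntn1, Nlgn1 and the brighter Ncam1 and Nlgn3 probe sets. It was slightly smaller for Nlgn2 and the brighter Nrxn2 one. Whether same-number arrays were handled together was not tested. The fits without a filter for the dim probe sets, and that of the pairs with a trend, were added after seeing the data.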
